A study of Homo sapiens with 40 samples.

Results

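SPINT1 and SPINT2 are the genes of the Kunitz-type serine protease inhibitors also known as HAI-1 and HAI-2, and they were chosen by gene symbol. They are 2 of 62263 genes in the deposited table, as ENSG00000166145.15 (SPINT1, chromosome 15) and ENSG00000167642.13 (SPINT2, chromosome 19), and both passed the filter on low counts that left 16735 genes. The pair was picked because SPINT2 was already known to rise with IL-13 in these libraries, so its IL-13 response is described here and not tested.

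RNA came from BEAS-2B, an immortalised human bronchial epithelial cell line, sequenced by Frac-seq, which compares total RNA (input) with RNA bound to polyribosomes (polysome). The groups were unstimulated cells with a control hairpin (shControl), IL-13-treated cells with the control hairpin, unstimulated cells with a hairpin against the RNA-binding protein IGF2BP3 (shIGF2BP3), and IL-13-treated cells with that hairpin, each with input and polysome libraries. All groups were grown in RPMI with 10% serum and starved overnight in 2% serum, and the IL-13 groups received 100 ng/ml for 24 h. The 40 libraries formed 8 groups of 5. Each hairpin was represented by 1 stable line, and effects of the hairpin and of the line cannot be told apart.

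Both are membrane proteins found in epithelial cells. A Kunitz domain is a compact fold held by disulfide bonds between conserved cysteines, and its exposed loop blocks the active site of trypsin-like proteases. SPINT1 and SPINT2 inhibit matriptase (ST14), prostasin (PRSS8), hepsin (HPN) and the activator of hepatocyte growth factor (HGFAC), and so limit activation of the growth factor HGF, the ligand of MET, and of the protease-activated receptor F2RL1. IL-13 is a cytokine of allergic airway inflammation that signals through STAT6.

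The coding stretches of the Kunitz domains are shown because they are what the 2 genes share, and because reads from similar stretches could in principle be assigned to either gene. Each stretch runs 5′ to 3′ from the first to the last conserved cysteine codon, with the 6 cysteine codons in capitals, and was read from GENCODE v29 transcripts. The SPINT1 transcript ENST00000344051.8 holds them at bases 982 to 1134 and 1405 to 1557, and the SPINT2 transcript ENST00000301244.11 at bases 547 to 699 and 832 to 984.
SPINT1 Kunitz domain 1: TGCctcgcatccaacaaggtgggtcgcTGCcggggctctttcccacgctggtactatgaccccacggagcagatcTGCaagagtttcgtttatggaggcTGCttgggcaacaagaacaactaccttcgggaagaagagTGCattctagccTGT
SPINT1 Kunitz domain 2: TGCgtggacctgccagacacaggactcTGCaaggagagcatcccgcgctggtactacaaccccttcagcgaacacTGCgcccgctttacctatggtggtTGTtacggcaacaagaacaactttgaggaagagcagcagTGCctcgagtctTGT
SPINT2 Kunitz domain 1: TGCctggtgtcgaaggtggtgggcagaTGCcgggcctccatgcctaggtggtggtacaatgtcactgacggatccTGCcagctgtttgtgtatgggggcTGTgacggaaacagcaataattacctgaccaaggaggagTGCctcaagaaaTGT
SPINT2 Kunitz domain 2: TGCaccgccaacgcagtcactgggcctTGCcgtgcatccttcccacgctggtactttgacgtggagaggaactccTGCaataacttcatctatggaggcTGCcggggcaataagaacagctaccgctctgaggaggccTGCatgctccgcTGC
The stretches were located by 1 fixed spacing of cysteine codons, so their shared length of 51 codons and shared spacing follow from the search. Compared base by base, SPINT1 domain 1 matched SPINT2 domain 2 at 63.4% and SPINT2 domain 1 at 59.5% of 153 bases. SPINT1 domain 2 matched these at 52.9% and 54.2%. The 2 domains within SPINT1 matched at 53.6% and those within SPINT2 at 49.0%. Translated to 51 amino acids the order turned, as SPINT1 domain 1 matched SPINT2 domain 1 at 60.8% and SPINT2 domain 2 at 54.9%. The longest run of identical bases between any SPINT1 and any SPINT2 transcript was 16. These transcripts are 3056 bases (SPINT1) and 1802 bases (SPINT2) long. Another SPINT2 transcript, ENST00000454580.7, has an open reading frame of 195 codons and a single Kunitz domain, and values here are per gene and do not separate these transcripts.

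Total estimated counts per library ran from 14044352 to 40441061 in input and from 1816848 to 34082191 in polysome, where 3 libraries of the line labelled knockdown held under 5000000. IGF2BP3, the targeted gene, had lower means in the input of the line labelled knockdown, at 24.9 CPM ± 3.02 against 35.2 CPM ± 11.3 without IL-13 (SD, n = 5 each), but the libraries overlapped and the edgeR adjusted p was 1. Its log2 differences between lines in input were -0.50 ± 0.37 without and -0.45 ± 0.37 with IL-13 (SE). In polysome RNA they were smaller, at -0.10 ± 0.39 and -0.15 ± 0.37, and none was called. CISH, a STAT-induced inhibitor of cytokine signalling, rose with IL-13 in all 4 comparisons (log2 fold change 3.90 to 4.55). Of 12 epithelial markers 8 passed the filter: KRT8, KRT18 and KRT7 averaged 621, 651 and 142 TPM, while EPCAM and CDH1 averaged 0.462 and 0.165 TPM and RAB25 was at 0 in every library. All 10 mesenchymal markers passed, led by VIM at 881 TPM.

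SPINT2 was an abundant transcript in every group, and SPINT1 lay near the middle of the genes tested. Per transcript length, in TPM, SPINT2 averaged 52.7 ± 11.0 and SPINT1 6.72 ± 3.30 in unstimulated control input (SD, n = 5). At those means 86.4% of the genes tested lay below SPINT2 and 53.0% below SPINT1. The highest SPINT2 mean was 372 TPM ± 71.0 in polysome RNA of the IL-13-treated line labelled knockdown, above 97.5% of the genes. The SPINT1 means stayed between 3.13 and 6.72 TPM over the 8 groups, above 44.7% to 56.1% of the genes.

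SPINT2 rose 2.79-fold to 3.13-fold with IL-13 in both lines and both fractions, while the fitted SPINT1 differences were below 0 in all 4 comparisons, with intervals that included 0, and in input of the line labelled knockdown the sign turned when 1 library was left out. CPM, counts scaled to library size with edgeR's TMM factors, are used below to compare libraries for 1 gene. In control input, SPINT2 measured 75.7, 54.8, 48.7, 88.1 and 51.5 CPM in unstimulated replicates 1 to 5 and 170.1, 159, 208, 186 and 187 CPM with IL-13. Every IL-13 library was above every unstimulated one, with a gap from 88.1 to 159 CPM. The fitted difference was 1.51 ± 0.22 on the log2 scale (SE), a 2.85-fold rise with a 95% interval of 2.09 to 3.89.

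In input of the line labelled knockdown, SPINT2 measured 97.6, 69.9, 52.2, 80.3 and 66.0 CPM without IL-13 and 291, 218, 169, 217 and 251 CPM with it. The groups did not overlap, replicate 1 was the highest library of both, and replicate 3 the lowest of both. The fitted rise was 3.13-fold (log2 1.65 ± 0.22, SE).

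In polysome RNA of control cells, SPINT2 measured 149, 111, 115, 206 and 162 CPM without IL-13 and 452, 652, 304, 352 and 311 CPM with it. The IL-13 libraries were again all above the unstimulated ones, and replicate 2 stood highest. The fitted rise was 2.79-fold (log2 1.48 ± 0.22, SE).

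In polysome RNA of the line labelled knockdown, SPINT2 measured 122, 159.9, 182, 188 and 129 CPM without IL-13 and 348, 713, 404, 451 and 482 CPM with it. Replicate 2 was again the highest IL-13 library, and the groups did not overlap. The fitted rise was 3.06-fold (log2 1.62 ± 0.22, SE).

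Over all genes tested, 0.0777% and 0.0837% passed an adjusted p under 0.05 for IL-13 in input (control line and line labelled knockdown) and 0.125% and 0.0956% in polysome RNA. The groups of libraries did not overlap for 0.418%, 0.878%, 0.442% and 0.52% of genes in the same order. SPINT2 is in each of these sets by choice. It was 1 of 10 genes past the threshold in all 4 comparisons and, at a mean of 218 CPM over the 40 libraries, the most abundant of them. LIMA1, an actin-binding protein, followed at 153 CPM with log2 changes of 1.15 to 1.19. Others among them were NABP1, CISH, PPFIBP2, RFLNA, CCL26, SOCS1 and HSD3B1, with means of 3.41 to 23.5 CPM. CCL26 encodes the eosinophil attractant eotaxin-3 and SOCS1 another inhibitor of cytokine signalling.

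SPINT1 values were scattered within groups. In control input, SPINT1 measured 26.7, 18.7, 9.58, 8.09 and 16.8 CPM without IL-13 and 11.8, 9.15, 7.01, 16.6 and 9.55 CPM with it. The groups overlapped, and the fitted difference was -0.56 ± 0.46 (log2, SE; 95% interval -1.49 to 0.37). In input of the line labelled knockdown, SPINT1 measured 6.83, 11.7, 13.5, 9.83 and 8.30 CPM without IL-13 and 7.64, 6.79, 13.3, 7.88 and 12.2 CPM with it. These groups covered nearly the same range, and the fitted difference was -0.07 ± 0.46 (interval -1.01 to 0.86). It turned to 0.062 without unstimulated replicate 3 and to 0.030 without IL-13 replicate 2.

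In polysome RNA of control cells, SPINT1 measured 33.2, 5.64, 6.71, 23.2 and 7.92 CPM without IL-13 and 8.24, 18.5, 2.47, 9.24 and 6.19 CPM with it, a fitted difference of -0.78 ± 0.47 (interval -1.72 to 0.17). Replicates 1 and 4 were the high unstimulated libraries, and the groups overlapped. In polysome RNA of the line labelled knockdown, SPINT1 measured 20.0, 8.31, 9.99, 12.9 and 2.93 CPM without IL-13 and 3.90, 9.81, 4.63, 6.50 and 15.6 CPM with it, a fitted difference of -0.51 ± 0.48 (interval -1.48 to 0.46). The library at 2.93 CPM rested on 6 counts.

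The libraries numbered 1 of unstimulated control cells held the highest SPINT1 value of each fraction. The labels do not say whether an input and a polysome library of 1 number came from the same cells. Without these 2 libraries the SPINT1 differences in the control line were -0.30 in input and -0.29 in polysome RNA, while those of SPINT2 were 1.58 and 1.48. Counts behind SPINT1 were 137 to 747 per library in input and 6 to 514 in polysome RNA, beside standard errors of 0.46 in input and of 0.47 and 0.48 in polysome RNA. A SPINT1 change within these intervals cannot be told from none with 5 libraries a group. SPINT2 rested on 263 to 18027 counts.

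**Figure D1:**
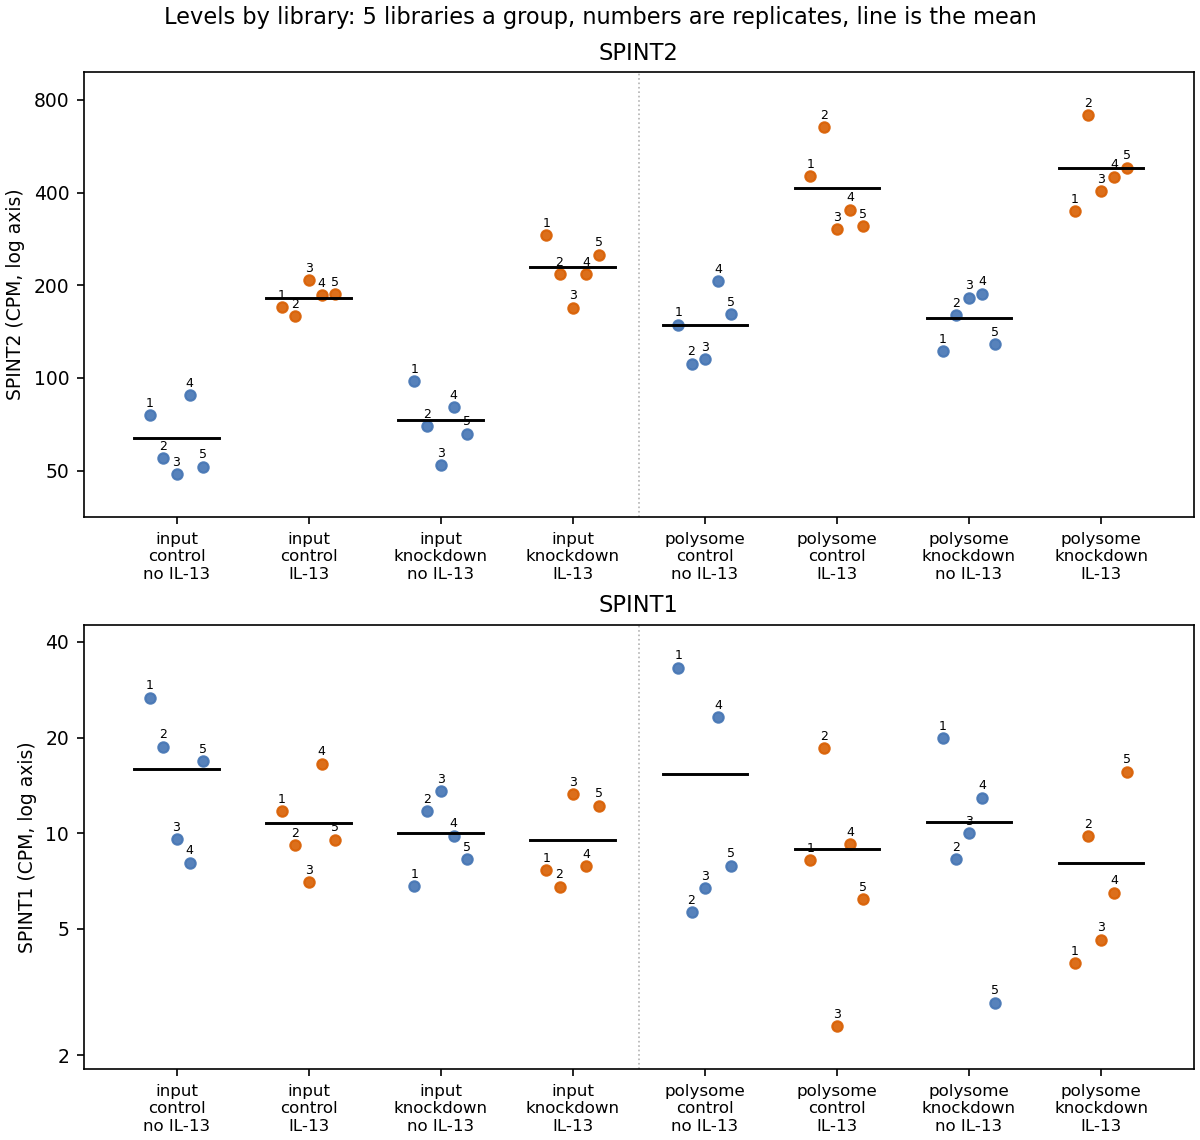
Level of SPINT2 (top) and SPINT1 (bottom) in each of 40 libraries, in CPM on a log axis, by fraction, line and treatment; points are libraries labelled with their replicate number, blue without and orange with IL-13, and black lines are means of 5. All SPINT2 libraries with IL-13 sit above those without it in the same line and fraction (for example 159 to 208 against 48.7 to 88.1 CPM in control input), while the SPINT1 libraries overlap.

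**Figure D2:**
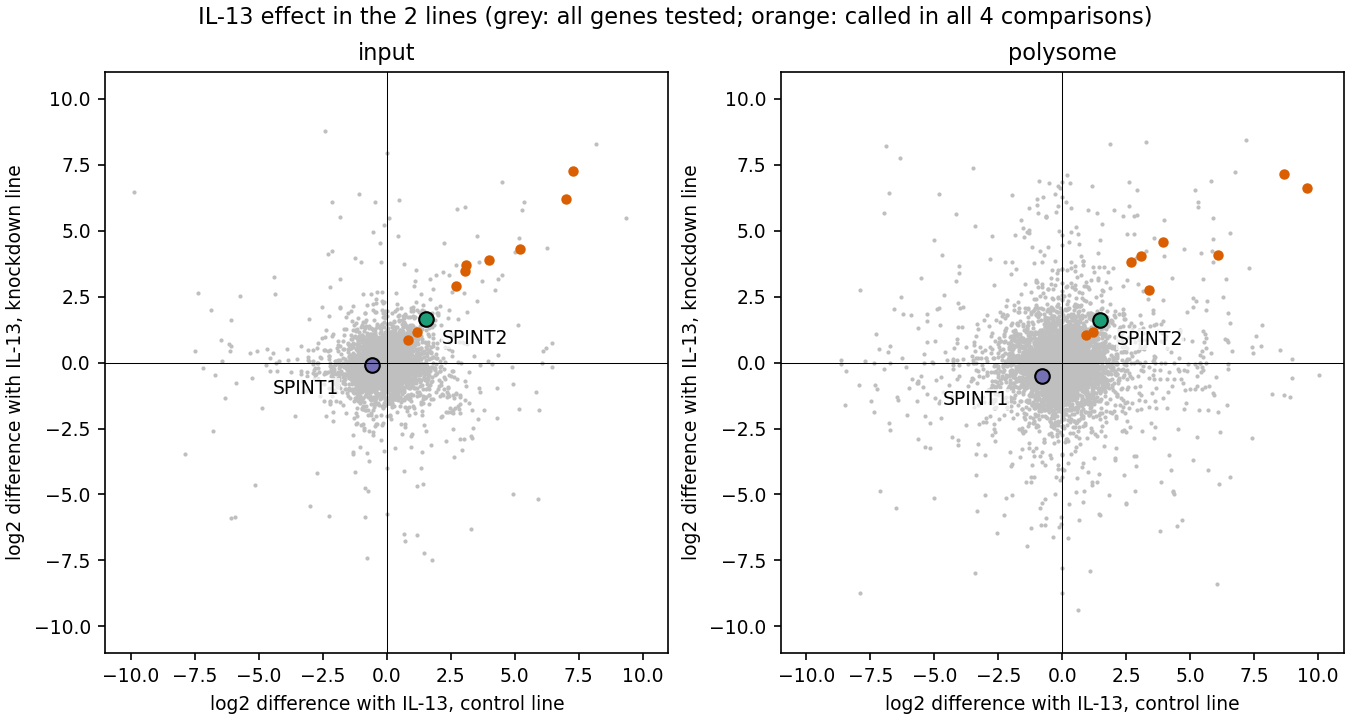
Log2 difference with IL-13 in the control line (horizontal) and in the line labelled knockdown (vertical), for input (left) and polysome RNA (right); grey points are the 16735 genes tested and orange points the genes past the threshold in all 4 comparisons. SPINT2 lies at 1.51 and 1.65 in input, and SPINT1 at -0.56 and -0.07.

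Some summed marker levels moved with IL-13 beside SPINT2, and KRT8 and KRT18 (means of 621 and 651 TPM) weigh most in the epithelial sum. The summed TPM of the epithelial markers had medians of 1407 without and 1985 with IL-13 in control input (ranges 1283 to 1652 and 1490 to 2309) and of 1560 and 2326 in input of the line labelled knockdown (1162 to 1681 and 1475 to 2681). In polysome RNA of control cells, where SPINT2 rose 2.79-fold, the medians were 1226 and 1231 (ranges 716 to 1378 and 760.4 to 1302). For the polysome libraries of the line labelled knockdown, where SPINT2 rose 3.06-fold, they were 1028 and 1270.3 (735 to 1243 and 1209.7 to 1498). The mesenchymal sum had medians of 1525 and 1399 in control input and of 1615 and 1517 in input of the line labelled knockdown. Gene by gene, 3 of the 8 epithelial markers tested were above 0 with IL-13 in control input (median log2 change -0.28). In input of the line labelled knockdown it was 6 of 8 (median 0.40). In polysome RNA it was 4 of 8 (0.07) in the control line and 6 of 8 (0.38) in the line labelled knockdown. None was called by edgeR, beside 0.0777% to 0.125% of all genes. The part of these marker shifts in the SPINT2 values was not tested. In bulk RNA, more cells with SPINT2 and more SPINT2 RNA per cell cannot be told apart.

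The IL-13 response of SPINT2 did not pass the test of a difference between the lines. The difference of the log2 changes (line labelled knockdown minus control) was 0.14 ± 0.31 (SE) in input and 0.14 ± 0.31 in polysome RNA, with an edgeR adjusted p of 1.00 in both. Intervals ran from -0.48 to 0.75 in both fractions. For SPINT1 the differences were 0.49 ± 0.65 and 0.26 ± 0.67, with intervals of -0.83 to 1.80 and -1.09 to 1.61. Of all genes tested, edgeR called 0% in either comparison (153 and 563 genes at an unadjusted p under 0.05), and DESeq2 called 6 and 25 genes.

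The IL-13 response was also compared between polysome and input RNA. For SPINT2 the shift was -0.03 ± 0.30 (SE) in the control line and -0.03 ± 0.31 in the line labelled knockdown, with an interval of -0.65 to 0.58 and of -0.65 to 0.59. SPINT1 gave -0.21 ± 0.65 and -0.44 ± 0.66. No shift passed the edgeR test (adjusted p of 1.00), which called 0% of all genes. Unadjusted p lay under 0.05 for 326 and 219 genes, and DESeq2 called 20 and 5.

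Neither gene differed between the lines beyond the spread of the libraries. SPINT2 was 0.20 ± 0.22 (log2, SE) higher in the line labelled knockdown in unstimulated input and 0.33 ± 0.22 in IL-13-treated input, with fold intervals of 0.847 to 1.55 and 0.931 to 1.71. In polysome RNA the SPINT2 differences were 0.08 ± 0.22 and 0.21 ± 0.22, with fold intervals of 0.778 to 1.43 and 0.855 to 1.57. SPINT1 differed by -0.67 ± 0.46 and -0.18 ± 0.46 in input RNA, and by -0.48 ± 0.47 and -0.22 ± 0.47 in polysome RNA, in the same order. All 8 comparisons had overlapping libraries, and the edgeR adjusted p ranged from 0.821 to 1. Over all genes tested edgeR called 0.012% and 0% in input RNA (for the second, 502 genes at an unadjusted p under 0.05 and 55 called by DESeq2), with 0.0299% and 0.0896% in polysome RNA. Libraries did not overlap for 1.36%, 1.64%, 0.633% and 1.66% of genes. The shift of the line difference from input to polysome was -0.12 ± 0.31 for SPINT2 without IL-13 and -0.12 ± 0.30 with it, and 0.19 ± 0.66 and -0.04 ± 0.66 for SPINT1. None was called (edgeR adjusted p of 1.00), beside 0% (283 genes at an unadjusted p under 0.05 and 10 called by DESeq2) and 0.00598% of all genes.

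**Figure D3:**
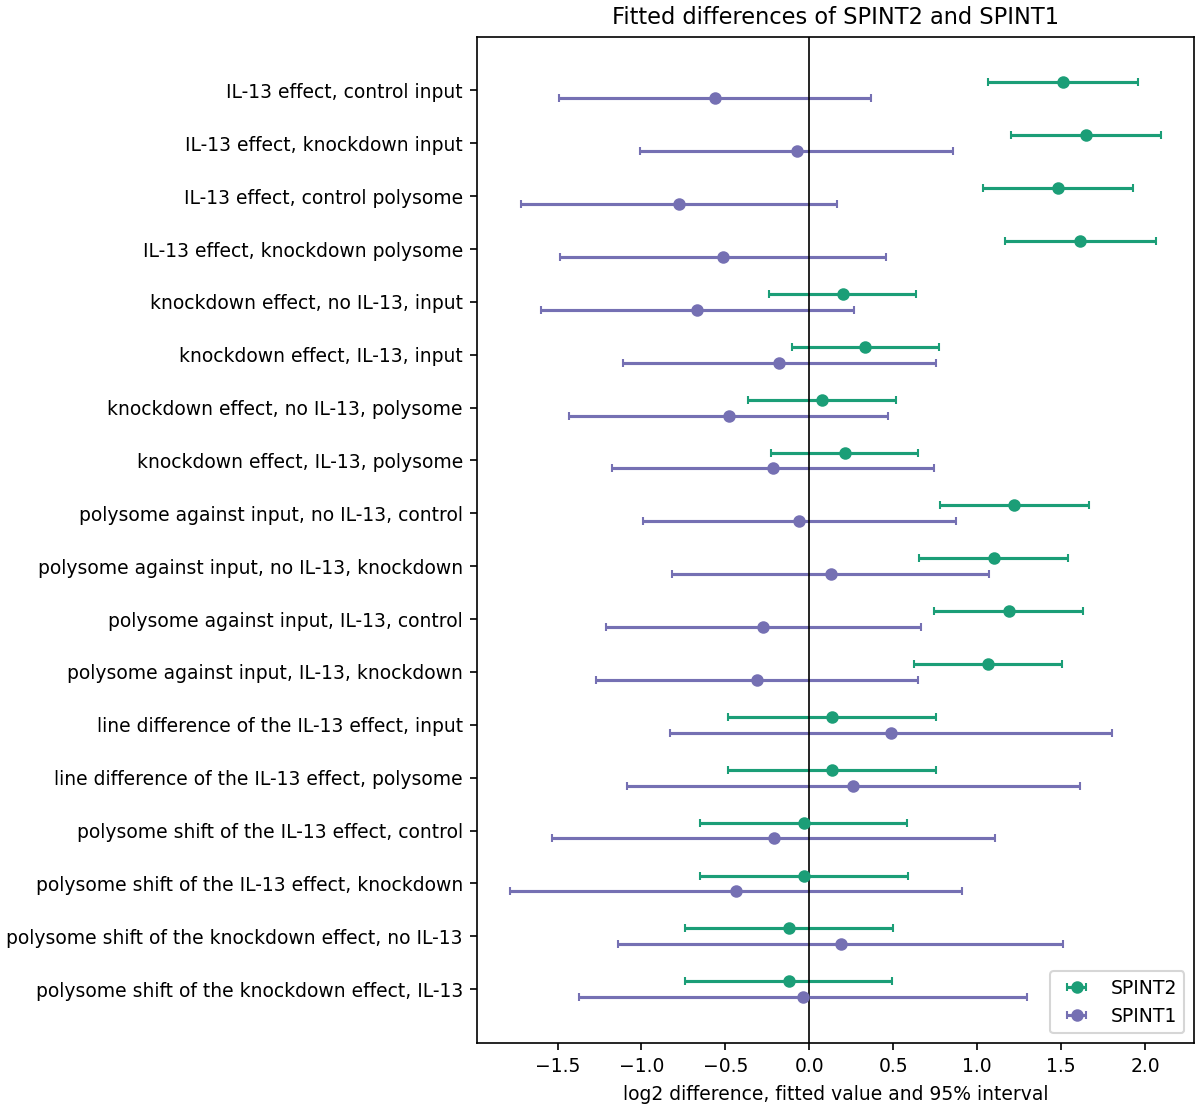
Fitted log2 differences of SPINT2 (green) and SPINT1 (purple) in the 18 comparisons, with 95% intervals as bars. The SPINT2 intervals exclude 0 for IL-13, shown as a description, and for polysome against input, and include 0 elsewhere, while every SPINT1 interval includes 0.

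SPINT2 RNA was more abundant in polysome than in input libraries in every line and treatment, a comparison not used to choose the pair. CPM are shares of a library, so this difference is relative to the other RNAs of each fraction. In unstimulated control cells the SPINT2 range was 111 to 206 CPM in polysome and 48.7 to 88.1 CPM in input libraries. The groups did not overlap, and the difference was 1.22 ± 0.22 (log2, SE; 2.33-fold; edgeR adjusted p = 1.95e-05). In this comparison the calls over all genes were 17.4% higher in polysome RNA and 22.8% lower, and 9.84% of genes were higher with no overlap.

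With IL-13 the control line gave a SPINT2 difference of 1.19 ± 0.22 (edgeR adjusted p = 2.90e-05), with 304 CPM as the lowest polysome library and 208 CPM as the highest input library. The line labelled knockdown gave 1.10 ± 0.22 without IL-13 (adjusted p = 9.67e-05) and 1.06 ± 0.22 with it (adjusted p = 0.000132), also with no overlap. All 20 polysome libraries were thus above all 5 input libraries of their own line and treatment. The shares of genes called higher were 16.7%, 16.4% and 16% in these comparisons, and those higher with no overlap 10.6%, 11.6% and 12.3%, so a call alone does not set SPINT2 apart. By size of the difference, 90.1% to 92.1% of the genes tested lay below SPINT2 over the 4 comparisons, where the median gene was at -0.23 to -0.19.

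SPINT1 was at -0.06 ± 0.46 and 0.13 ± 0.47 without IL-13 (control line and line labelled knockdown) and at -0.27 ± 0.46 and -0.31 ± 0.47 with it. Its libraries overlapped in all 4 comparisons, and the edgeR adjusted p ranged from 0.645 to 0.935. Its intervals reached from -1.27 to 1.07, so differences in either direction remain within them.

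**Figure D4:**
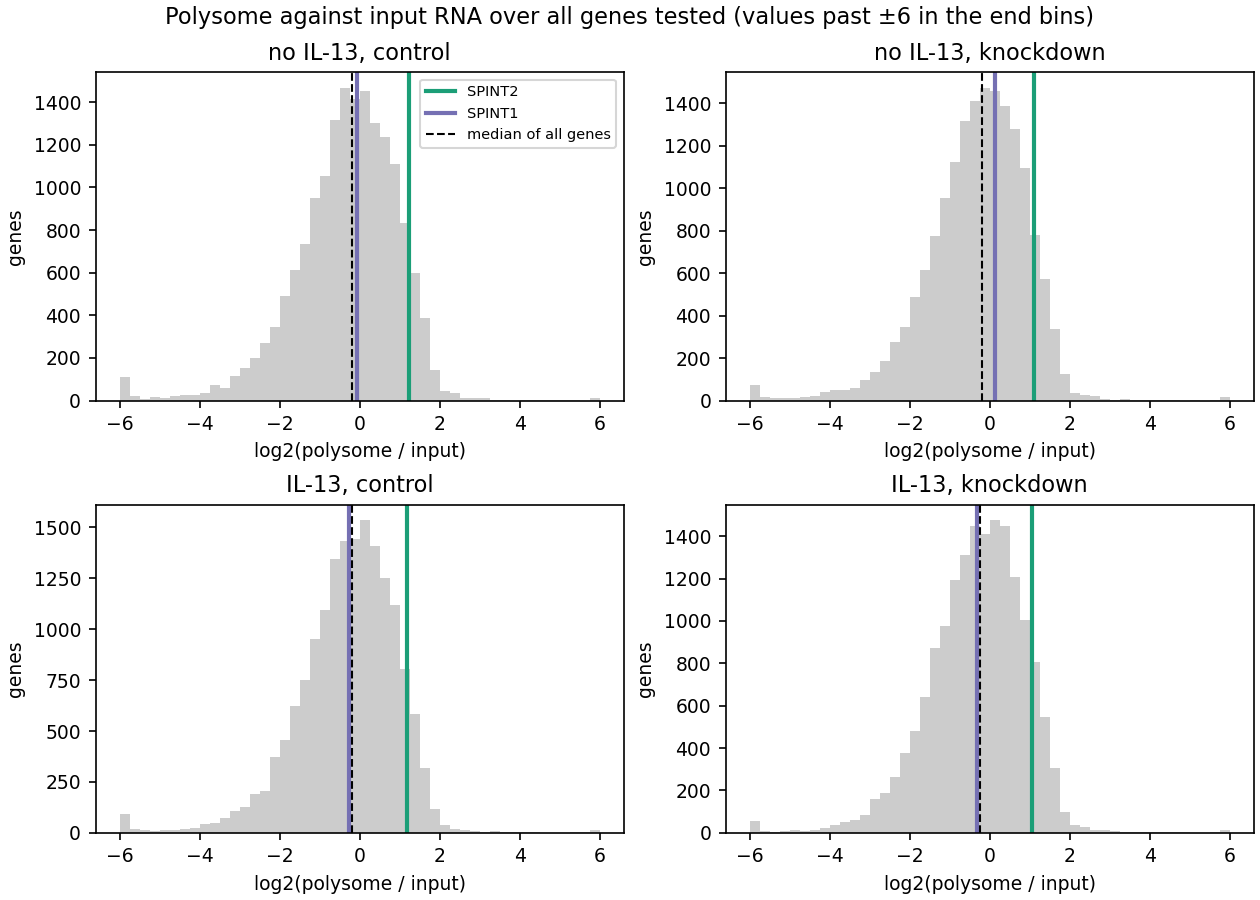
Distribution over the 16735 genes tested of the log2 difference between polysome and input RNA, 1 panel per line and treatment, with counts of genes on the vertical axis. SPINT2 (green line) lies at 1.06 to 1.22, right of the median gene (dashed), and SPINT1 (purple line) at -0.31 to 0.13, near it.

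Ordered by mean CPM, SPINT2 rose from unstimulated input (63.8 ± 17.3 in the control line, 73.2 ± 17.0 in the line labelled knockdown) to unstimulated polysome RNA (149 ± 38.8 and 156 ± 30.0), IL-13-treated input (182 ± 18.5 and 229 ± 45.1) and IL-13-treated polysome RNA (414 ± 145 and 479.7 ± 140; SD, n = 5 each). Along this order, libraries of neighbouring groups did not overlap at 2 steps, from unstimulated input to unstimulated polysome RNA and from IL-13-treated input to IL-13-treated polysome RNA. At the other 5 steps they overlapped. SPINT1 group means lay between 8.09 and 16.0 CPM, and every pair of neighbours in its order overlapped.

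The ratio of SPINT2 to SPINT1 TPM within a library does not depend on depth scaling. Its median was 5.99 in unstimulated control input and 16.1 in unstimulated input of the line labelled knockdown, and 35.4 and 54.3 with IL-13. In polysome RNA the medians were 32.3 and 37.3 without IL-13 and 102 and 144 with it. As a description, the mean log2 ratio was 1.72 to 2.18 higher with IL-13. In control input the highest ratio without IL-13 was 21.1 and the lowest with it 22.0, a narrow gap. For input of the line labelled knockdown these were 26.6 and 24.9, a slight overlap. In polysome RNA they were 41.6 and 70.3 (control line) and 88.1 and 59.1 (line labelled knockdown). The last 2 values were both of replicate 5, from libraries with 6 and 36 SPINT1 counts. Whether the lines differ in this overlap was not tested.

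Between lines the log2 ratio differed by 0.76, 0.47, 0.45 and 0.23 (line labelled knockdown minus control, in unstimulated input, IL-13 input, unstimulated polysome and IL-13 polysome RNA). Two-sided exact permutation tests of 5 against 5 libraries gave adjusted p from 0.476 to 0.595 over these 4 tests, and the smallest p that such a test allows is 0.00794. Between fractions the same kind of test was added after the values were seen. Polysome minus input was 1.67 in IL-13-treated control cells (exact permutation p = 0.00794, the smallest possible, adjusted p = 0.0317, higher in 5 of 5 polysome libraries than in any input library) and 1.43 in the IL-13-treated line labelled knockdown (exact adjusted p = 0.0476, 4 of 5 libraries). Without IL-13 the differences of 1.51 (control line, exact adjusted p = 0.0529) and 1.20 (line labelled knockdown, exact adjusted p = 0.0714) did not pass. The call in the IL-13-treated line labelled knockdown was lost (adjusted p = 0.0529) when any of polysome replicates 1, 2, 3 or 4 or of input replicates 3, 4 or 5 was left out.

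**Figure D5:**
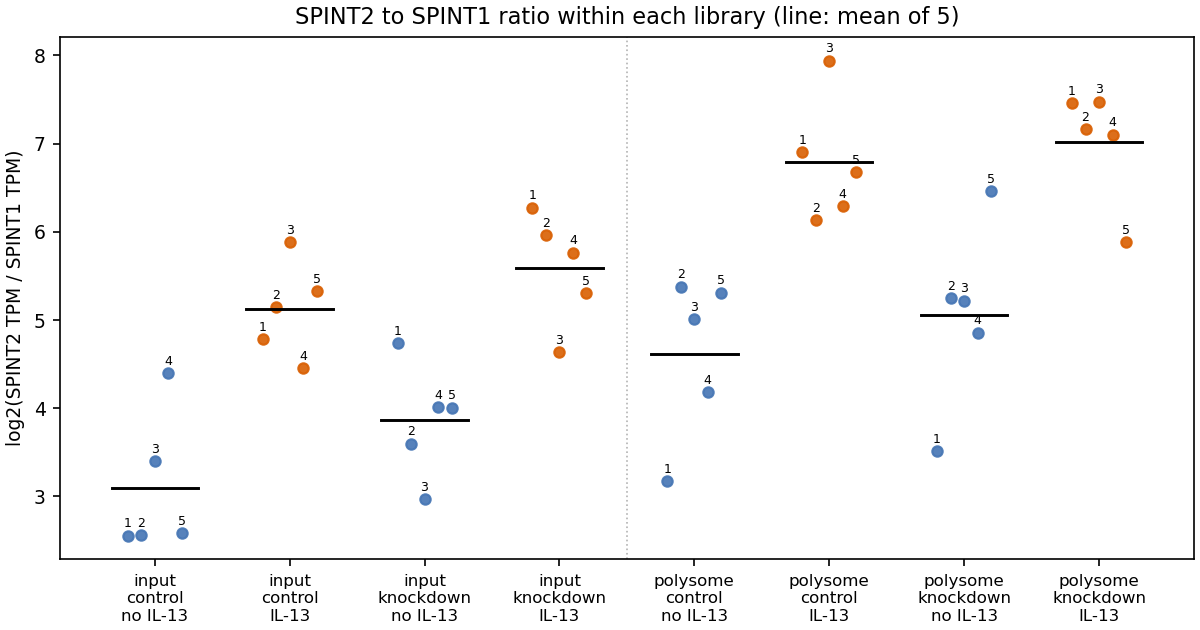
Log2 ratio of SPINT2 to SPINT1 TPM in each library, by fraction, line and treatment, with replicate numbers at the points and black lines for the means of 5. The means run from 3.10 in unstimulated control input to 7.02 in polysome RNA of the IL-13-treated line labelled knockdown.

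The main targets of these inhibitors were measured at low levels. Of 37 serine proteases listed as targets or relatives of targets, 10 passed the filter. ST14 averaged 0.383 TPM and PRSS8 0.351 TPM over the 40 libraries, and HPN and HGFAC reached at most 2 and 4 counts in any library. The highest means were those of PLAU (urokinase, 116 TPM), PRSS23 (82.8 TPM), FURIN (a proprotein convertase, 18.7 TPM) and PLAT (tissue plasminogen activator, 8.29 TPM). PLAT was the 1 protease of 10 called lower in polysome RNA in all 4 settings, beside 22% to 23.3% of all genes. PRSS8 was called higher in 1 setting, the IL-13-treated control line, beside 16.7% of all genes, and no other protease was called higher in any setting.

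Downstream of these proteases, 18 of 22 growth factors, receptors and membrane substrates passed the filter. HGF reached at most 2 counts, its receptor MET averaged 6.27 TPM and F2RL1 3.21 TPM. Abundant ones included F2R (the thrombin receptor, 66.4 TPM), PLAUR (the urokinase receptor, 28.7 TPM) and CLDN1 (a tight junction protein, 18.6 TPM).

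Among 16 other genes with a Kunitz domain, 6 passed the filter: APLP2 (115 TPM), APP (80.6 TPM), TFPI2 (7.26 TPM), PAPLN (3.48 TPM), COL7A1 (3.35 TPM) and TFPI (3.15 TPM). APP is the amyloid precursor protein and APLP2 its relative, and TFPI and TFPI2 are tissue factor pathway inhibitors. All but TFPI2 were called lower in polysome RNA in all 4 settings, as were 22% to 23.3% of all genes (22.6% in the IL-13-treated control line), where SPINT2 was called higher. APP was lower by 2.04 to 2.45 (log2) and COL7A1, a large collagen, by 2.95 to 3.54. TFPI2 was 0.81 to 1.57 higher and passed in 3 of the 4. The median of the 6 was -1.71 to -1.38.

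Of 29 serpins and WAP or Kazal inhibitors, 14 passed the filter, among them SERPINB6 (314 TPM), SERPINB9 (24.5 TPM) and SERPINB1 (23.8 TPM). SERPINB1, SERPINB6 and SERPINB9, which act inside cells, were the 3 of 14 called higher in polysome RNA in all 4 settings, beside 16% to 17.4% of all genes, SERPINB6 by 1.28 to 1.54 (log2), beside 1.06 to 1.22 for SPINT2. The median of the 14 was 0.34 to 0.71.

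For IL-13 and for the line difference, edgeR called 0 of the 48 genes of these 4 lists. Of all genes tested it called 0.0777% to 0.125% for IL-13 and 0% to 0.0896% between lines, so 0 of 48 is near that share. Without adjustment, p was under 0.05 for 7, 3, 9 and 5 of the 48 with IL-13 (control and knockdown-labelled line in input, then in polysome RNA), beside 341, 173, 860 and 538 of all 16735 genes. Between lines it was so for 3 to 6 of the 48, beside 497 to 1660 of 16735. DESeq2 called 1 for IL-13, beside 22 of 16712 genes in the same comparison, and 0 between lines. The 1 was SERPINB4, singled out after its values were seen, with IL-13 in input of the line labelled knockdown, where it averaged 0.817 TPM ± 0.387 against 0.00857 TPM ± 0.0192 (SD, n = 5 each). In control input SERPINB4 was also higher with IL-13, by 2.74 ± 1.10 (log2, SE, edgeR), and not called. It was at 0 in 19 of 40 libraries and reached at most 57 counts. Its passing of the filter may thus rest on the IL-13 libraries. SERPINB3, of the same list, was at 0 in 16 libraries and higher by 2.69 ± 0.99 in control input, also not called. Median log2 changes over the 4 IL-13 comparisons were -0.40 to -0.16 for the proteases, -0.32 to -0.16 for the downstream genes and -0.43 to -0.19 for the Kunitz genes, beside -0.021 to 0.0043 for all genes. For the other inhibitors they were -0.04 and -0.11 in the control line (input, polysome) and 0.23 and 0.17 in the line labelled knockdown. The first 3 rest on 10, 18 and 6 genes. Some of these were near 0, as KLK5 was at 0 in 24 libraries and MST1 in 13. A shift of these medians was not tested.

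Across the 20 input libraries, the genes whose log2(CPM + 1) followed SPINT2 most closely among 10488 genes with a mean of at least 5 CPM over those libraries were RFLNA (Pearson r = 0.97), CCL26 (r = 0.95), CCDC86 (r = 0.93), PPP1R14A (r = 0.92) and CISH (r = 0.92). Over the 20 polysome libraries the same genes had r of 0.82 to 0.90. Since SPINT2 and these genes were all measured in libraries that differ by IL-13, the values describe that shared split. Some passed the limit through the IL-13 libraries: CISH averaged 2.07 CPM in unstimulated and 33.3 CPM in IL-13-treated control input. SPINT1 was followed most closely by UXS1 (r = 0.93), SGPP1, QPCT, ATP1B3 and DNAJB11 (r = 0.90), with r of 0.62 to 0.87 in polysome RNA. Between SPINT1 and SPINT2, r was -0.39 in input and -0.02 in polysome RNA.

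PPP1R14A, an inhibitor of myosin phosphatase, lies beside SPINT2 on chromosome 19 on the opposite strand. In GENCODE v29, 1 of 11 SPINT2 transcripts spans it, and the exons of the genes share 0 bases. It averaged 2.16 CPM ± 1.35 without and 9.07 CPM ± 4.94 with IL-13 in control input (SD, n = 5 each). With IL-13 it was higher by 2.07 and 2.12 (log2) in input RNA and by 2.38 and 1.89 in polysome RNA (control line, then the line labelled knockdown), with no overlap of libraries in any. These IL-13 values are a description with no test, since the gene was picked for its likeness to SPINT2 in the input libraries. Its differences between polysome and input RNA were -1.10 to -0.64, none called, beside 1.06 to 1.22 for SPINT2. C19orf33, on the same strand as SPINT2 and named here after its values were seen, had log2 differences of 0.35 to 0.68 with IL-13, with overlapping libraries and no call.

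SPINT1-AS1, an antisense RNA that shares 100 exon bases with SPINT1 on the other strand, reached at most 20.9 counts in an input library and was at 0 in 18 of 20 polysome libraries. The mean transcript length implied by the deposited counts and TPM, relative to the median gene, was -0.85 to -0.77 (log2) for SPINT2 and 0.19 to 0.20 for SPINT1 over the 8 group means.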

How the data were processed

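Frac-seq libraries of BEAS-2B cells were analysed from 1 deposited table of 62263 genes and 40 libraries, grouped by the labels, with polyA-selected RNA and a stranded kit per the labels' protocols. Per the file headers the deposited values were estimated counts; they held decimals and differed in total between libraries. The authors also deposited TPM, scaled for transcript length and depth, and these summed to 82.3% to 85.9% of a full TPM sum per library, so some features that entered the scaling are not analysed here. Trimmomatic, Salmon, MultiQC and DESeq2 are named in the submitters' processing notes. Their versions, the genome build and the annotation are not given in the sources used here, so no genome coordinates are printed, and GENCODE v29 supplied transcript sequences and neighbours only. Column names write siC and siIGF2BP3 where the protocol describes stable lines with hairpins, and the groups here take the protocol's wording.

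Estimated counts were rounded and tested with edgeR 4.0.16 in R 4.3.3: filterByExpr (16735 genes, which kept 99.91% or more of each library's counts), TMM scaling and a quasi-likelihood test with 1 mean per group over 40 libraries. The design had assumed counts. Two-sided p-values received a Benjamini-Hochberg adjustment across the 16735 genes, with calls made below 0.05. Log2 ratios of SPINT2 to SPINT1 were compared by exact permutation in Python 3.11.15, adjusted over 4 settings. The procedure was tested on simulated data. Counts of replicate pairs differed beyond sampling noise (lowest chi-square per degree of freedom 16.2 over 80 pairs). Nothing in the labels says that replicates came from separate cultures, so p-values measure the spread between these samples, which may be technical.

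SPINT1, SPINT2, the gene lists and the tests were chosen with earlier results of these data known. Named genes were SPINT1 and SPINT2, the checks SPINT1-AS1, IGF2BP3 and CISH, up to 4 genes of highest mean TPM in each protease, substrate or inhibitor list with any called for IL-13, and the 5 genes most like each member; some genes that this rule names are not reported here. Others are genes of known function in the pathway, or are said to have been named after their values were seen. Alternatives were a fit of only the libraries compared, DESeq2 size factors, a filter of 1 count in total, the DESeq2 1.42.0 Wald test, a block for the replicate number, a CPM ratio with a pseudocount of 1, and leaving out each library. Added after seeing the data were only libraries of at least 5000000 counts, leaving out replicate 1 of unstimulated control cells in both fractions, an offset for transcript length and line, treatment and number as a block.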

Additional observations from a re-analysis of the deposited data

Results flagged for a closer look

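In polysome RNA of IL-13-treated control cells, replicate 3 had a ratio of SPINT2 to SPINT1 TPM of 246, while the other 4 libraries lay between 70.3 and 120. The gap to the nearest library was 0.719 of the group's range, above the 95% critical value of 0.71 for 5 libraries. The rule was run on the ratio and not on its log2. In log2, replicate 3 was at 7.94 and the others at 6.14 to 6.90, a gap under that critical share of the range. SPINT1 in replicate 3 was 2.47 CPM, the lowest of its group, and SPINT2 was 304 CPM, also the lowest. This was 1 of 24 groups of 5 values examined, where chance gives about 1.2.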

How the results depend on the processing

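The higher level of SPINT2 in polysome RNA kept its direction and its call under every alternative run and without any 1 library. Its IL-13 differences also kept their direction. That is a description only, since SPINT2 was picked for its rise with IL-13 and these groups did not overlap, so a reversal could hardly occur. With IL-13, leaving out 1 library gave SPINT2 differences of 1.43 to 1.66 and 1.55 to 1.78 in input (control line, line labelled knockdown) and 1.26 to 1.63 and 1.43 to 1.71 in polysome RNA, and polysome against input gave 1.07 to 1.36, 0.961 to 1.28, 1.00 to 1.28 and 0.870 to 1.16 (control without and with IL-13, then the line labelled knockdown). SPINT1 with IL-13 gave -0.77 to -0.30, -0.22 to 0.06, -1.23 to -0.29 and -0.82 to -0.22. Differences that were never called changed sign as follows, and the cause was not tested. The SPINT1 shift of the line difference with IL-13 was 0.0059 with DESeq2 size factors, 0.033 with the DESeq2 Wald test, 0.041 with only the libraries compared, 0.053 with the length offset and 0.12 with line, treatment and number as a replicate block. Polysome against input for SPINT1 without IL-13 was 0.012 in the control line with the length offset and -0.034 in the line labelled knockdown with that block. Without the input and polysome replicate 1 of unstimulated control cells, SPINT1 gave 0.0044 for the line difference in unstimulated polysome RNA, -0.23 for the line difference of the IL-13 effect in polysome RNA and 0.0090 for the polysome shift of the IL-13 effect in the control line. The SPINT2 shift of the line difference without IL-13 was 0.079 with only libraries of at least 5000000 counts, and the SPINT2 shift of the IL-13 effect in the control line was 0.015 with the length offset. Leaving out 1 library gave, for SPINT1, line differences of -0.33 to 0.030 (IL-13 input), -0.53 to 0.23 (IL-13 polysome) and -0.78 to 0.0052 (unstimulated polysome), -0.23 to 0.72 for the line difference of the IL-13 effect in polysome RNA, -0.55 to 0.20 and -0.17 to 0.47 for polysome against input without IL-13 (control line, line labelled knockdown), -0.67 to 0.27 for the shift of the IL-13 effect in the control line, and -0.35 to 0.41 and -0.11 to 0.67 for the shift of the line difference with and without IL-13. For SPINT2 it gave -0.013 to 0.22 for the line difference in unstimulated polysome RNA, -0.0051 to 0.27 and -0.053 to 0.36 for the line difference of the IL-13 effect in input and polysome RNA, -0.26 to 0.12 and -0.23 to 0.063 for its shift in the control line and the line labelled knockdown, and -0.31 to 0.10 and -0.27 to 0.026 for the shift of the line difference with and without IL-13. The log2 ratio of SPINT2 to SPINT1, polysome minus input, was 1.47 and 1.15 without IL-13 from CPM plus 1 (control line, line labelled knockdown), both with an exact adjusted p of 0.0476, and leaving out 1 library gave 1.32 to 1.87, 0.848 to 1.58 and, with IL-13 in the line labelled knockdown, 1.19 to 1.71. Of the 48 list genes, 1 was called for IL-13 in input of the line labelled knockdown by DESeq2 and without replicate 1 of unstimulated control cells (SERPINB4 in both). Over all genes, DESeq2 called 33, 22, 61 and 36 for IL-13 (edgeR 13, 14, 21 and 16), and 28, 55, 89 and 144 between lines (edgeR 2, 0, 5 and 15), while fits of only the libraries compared called 8, 19, 3 and 9 for IL-13 and 11, 15, 0 and 0 between lines. Same-numbered libraries of a fraction had a mean correlation of deviations of -0.02 over 60 pairs (-0.53 to 0.48, 17 over 0.1). Input and polysome libraries of the same number, line and treatment had one of 0.049 over 20 pairs (-0.33 to 0.54, 7 over 0.1). The numbers are thus not shown to pair libraries in either way. The first value pools pairs across lines and treatments, so a pairing of only some groups could be missed. With the replicate number as a block, SPINT2 in polysome against input gave 1.23, 1.15, 1.12 and 1.07, and no call on SPINT1 or SPINT2 changed. SPINT1 values in polysome libraries rest on as few as 6 counts.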
